A study of Mus musculus with 2 samples.

Results

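The Ly49 receptors are the Klra family of NK cell receptors, and the 9 genes described here, Klra1, Klra3, Klra4, Klra5, Klra6, Klra7, Klra8, Klra9 and Klra10, were taken by gene symbol from the 31053 genes counted in each library. Each symbol matched 1 gene. The libraries hold NK cells sorted as CD27+CD11b+ from the spleens of C57BL/6 mice, measured with a droplet method that counts unique molecular identifiers (UMIs), so that each transcript molecule caught is counted once. The control mice had the genotype EP3F/F, in which both alleles of the prostaglandin E2 receptor gene EP3 (Ptger3) are floxed and no Cre is named. The knockout mice had the genotype NKp46CreEP3F/F, in which a Cre recombinase driven by NKp46, a receptor of NK cells and some other innate lymphoid cells, acts on the same floxed alleles. Both groups therefore carried the floxed alleles, and a Cre-bearing group without them is not analysed here, so an effect of the Cre allele and of the loss of EP3 cannot be told apart. Cells of 2 mice were pooled in each group and gave 1 library per genotype, and the labels give no age or treatment. With 1 library per group no test between genotypes is possible and the spread between animals is unknown. All intervals below are exact 95% intervals that cover counting error only.

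Ly49 receptors are lectin-like proteins of the mouse NK cell surface, and most of them bind MHC class I molecules. Inhibitory members carry a motif in their tail that recruits the phosphatase SHP-1, whereas activating members signal through the adaptor DAP12. Each NK cell switches on its own subset of the genes during development, in a variegated pattern that is stable once set, so that a spleen holds many NK cells with different receptor sets. Klra4 encodes the activating receptor Ly49D. Klra8 encodes the activating receptor Ly49H, which recognises the m157 protein of mouse cytomegalovirus. Klra1 (Ly49A), Klra3 (Ly49C), Klra7 (Ly49G), Klra9 (Ly49I), Klra5 (Ly49E) and Klra6 (Ly49F) are the inhibitory or largely inhibitory members, and Klra10 encodes Ly49J.

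All 9 genes are protein-coding genes on the minus strand of chromosome 6 in the GRCm38 annotation. They lie within 488 kb, from Klra5 at chr6:129898996-129917650 to Klra1 at chr6:130363917-130386874. Klra4 lies at chr6:130043731-130067271, Klra8 at chr6:130115226-130129898, Klra9 at chr6:130178675-130193112, Klra7 at chr6:130218605-130233322 and Klra3 at chr6:130323289-130337574. The copies are alike, which bears on every count below, because a read that fits more than 1 gene equally well may not be assigned to any. Klra3 and Klra9 transcripts were 96.2% identical, Klra9 and Klra10 97.0%, and Klra4 and Klra8 78.7%. In the last 500 bases of the transcripts, where 3′ libraries place their reads, 8.52% of 90-base stretches of Klra3, 10.2% of Klra7, 14.1% of Klra9 and 15.6% of Klra10 also occurred in another Klra transcript, and none of Klra1, Klra4, Klra5, Klra6 or Klra8 did. At 50 bases the shares were 42.4% for Klra3, 44.8% for Klra9, 40.6% for Klra10 and 27.5% for Klra7, the last with the pseudogene Klra13-ps. At this length Klra8 had 13.1%, all of it shared with Klra9, Klra1 5.76%, Klra4 4.66%, Klra6 3.10% and Klra5 0%. Counts of Klra3, Klra7, Klra9 and Klra10 are therefore uncertain at their level.

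The promoters of 2 pairs are shown, because the members of each pair differed between the libraries in the same direction: Klra3 with Klra9, both higher in the knockout library, and Klra4 with Klra8, both lower in it. Each run covers 250 bases before and 50 bases after a RefSeq start site, on GRCm38.p6, minus strand, 5′ to 3′. Klra8 has a further RefSeq start site, whose window at chr6:130129786-130130085 is not shown and was not aligned. Capitals mark the bases at which the aligned partner differs or has a gap, and letters beyond the alignment are in lower case.
Klra3 chr6:130337577-130337876: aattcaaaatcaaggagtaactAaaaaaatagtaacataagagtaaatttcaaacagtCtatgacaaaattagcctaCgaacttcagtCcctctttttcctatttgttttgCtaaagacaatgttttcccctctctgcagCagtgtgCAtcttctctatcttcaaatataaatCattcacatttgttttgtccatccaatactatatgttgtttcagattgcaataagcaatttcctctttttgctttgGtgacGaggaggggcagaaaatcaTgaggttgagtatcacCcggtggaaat
Klra9 chr6:130193063-130193362: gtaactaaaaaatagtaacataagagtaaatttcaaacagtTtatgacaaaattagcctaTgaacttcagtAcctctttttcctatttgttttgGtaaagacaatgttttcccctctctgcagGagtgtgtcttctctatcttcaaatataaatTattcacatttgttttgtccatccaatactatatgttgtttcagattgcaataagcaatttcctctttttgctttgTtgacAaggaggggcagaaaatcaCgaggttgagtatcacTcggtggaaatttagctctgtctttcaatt
Klra4 chr6:130067222-130067521: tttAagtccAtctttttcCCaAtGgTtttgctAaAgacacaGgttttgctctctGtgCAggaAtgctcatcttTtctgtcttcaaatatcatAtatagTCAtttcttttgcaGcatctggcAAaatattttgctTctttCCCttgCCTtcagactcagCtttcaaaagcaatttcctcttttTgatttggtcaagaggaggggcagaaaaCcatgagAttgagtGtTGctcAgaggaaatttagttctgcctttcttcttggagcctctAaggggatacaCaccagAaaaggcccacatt
Klra8 chr6:130129849-130130148: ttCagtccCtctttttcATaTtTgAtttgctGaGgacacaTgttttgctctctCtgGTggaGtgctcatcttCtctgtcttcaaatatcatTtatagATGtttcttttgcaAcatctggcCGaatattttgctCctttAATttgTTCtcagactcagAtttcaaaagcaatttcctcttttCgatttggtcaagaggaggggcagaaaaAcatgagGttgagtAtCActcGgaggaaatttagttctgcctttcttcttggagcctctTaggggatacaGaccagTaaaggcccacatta
The Klra3 and Klra9 windows were 96.4% identical over 281 aligned bases, with 10 mismatches and 3 gap bases. The Klra4 and Klra8 windows were 86.6% identical over 299 aligned bases, with 40 mismatches. Klra3 with Klra9 was the closer of the 2 pairs both upstream of the gene and in the transcript. Members that differed in opposite directions could also be alike here. The window of Klra6, which was lower in the knockout library, was 93.0% identical to that of Klra3 over 200 aligned bases. With that of Klra9 it was 92.6% identical over 217. A link between promoter likeness and direction was not tested.

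The control library held 11785 cell barcodes with a median of 5641 UMIs, and the knockout library 10615 with a median of 3745, and 33 barcodes occurred in both. Cells with at least 500 genes and at most 10% mitochondrial UMIs numbered 10928 and 10023. Of these, 9883 control cells (90.4%) and 8864 knockout cells (88.4%) fell into 4 clusters named NK-like, each with UMIs of all 10 NK markers checked. The remaining clusters were named from dendritic, macrophage, platelet, T cell, interferon-response and erythroid genes. The cluster named from dendritic genes (cluster 4) also had division genes such as Mki67 among its leading genes, and 68.9% of its cells had NK receptor UMIs. No cluster was named ILC1-like in this clustering, whereas clustering without scaling within libraries gave an ILC1-like cluster of 35 control and 56 knockout cells. Among NK-like cells the summed level of the NK markers, in counts scaled to a total of 1000000 UMIs per library (CPM), was 33402 in control and 40481 in knockout cells, of the T cell markers 681 and 827, of the ILC1 markers 62.6 and 132, of the macrophage markers 10.2 and 23.2, of the erythroid markers 13.9 and 21.2, and of the neutrophil markers 1.62 and 8.94. The dendritic markers summed to 202 and 124, with Flt3 at 0, and the B cell and platelet markers to under 4 CPM. The part of these marker differences in the results below was not tested. Ptger3, the targeted gene, had 11 UMIs in control NK-like cells (0.178 CPM, interval 0.0887 to 0.318). In knockout NK-like cells it had 0 (interval 0 to 0.0993 CPM), where 3 counts would be 0.0808 CPM. The 2 intervals overlap. The sources used here do not say which exons are floxed, so it is not known whether a 3′ tag could see the deletion. Because the libraries differ in depth, shares of cells are given after thinning every cell to 2000 UMIs, which kept 9729 control and 8664 knockout NK-like cells.

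The activating receptor genes were detected in more control cells than any other Ly49 gene, and both were seen in fewer knockout than control cells. At least 1 Klra4 UMI was present in 58.0% of control cells (interval 57.0 to 59.0) and in 44.7% of knockout cells. Klra8 was present in 61.0% and 46.2%. Among the inhibitory members Klra7 also had a lower share in the knockout library, at 45.1% and 31.1%. Klra9 and Klra3 differed the other way. Klra9 was present in 36.3% of control and 43.7% of knockout cells, and Klra3 in 26.6% and 30.9%. Klra1 was present in 11.4% and 8.14%. The last 3 members were rare in both libraries, with Klra6 in 3.19% and 1.14%, Klra10 in 1.35% and 0.358%, and Klra5 in 1.10% and 0.658% of cells. From the highest to the lowest share the order was Klra8, Klra4, Klra7, Klra9, Klra3 and Klra1 in the control library and Klra8, Klra4, Klra9, Klra7, Klra3 and Klra1 in the knockout library, and in the latter the intervals of the neighbours Klra8 and Klra4, Klra4 and Klra9, and Klra7 and Klra3 overlapped. The place of Klra4 and Klra9 in the knockout library depends on depth: at 3000 UMIs Klra4 was present in 46.7% and Klra9 in 48.2% of its cells, and without thinning in 47.3% and 52.5%. The control shares without thinning were 63.4% and 49.2%. The size of the differences also depends on depth and on the choice of cells. In percentage points, knockout minus control, Klra4 was at -13.2, and at -4.82 among cells deep enough for 6000 UMIs and -2.99 in a marker gate of 269 and 464 cells. Klra8 was at -14.8, and at -4.53 at 6000 UMIs. Klra9 was at 7.37, and at 12.2 at 6000 UMIs, 18.6 in the gate and 3.33 without thinning. Klra3 was at 4.27, and at 9.45, 7.49 and 1.27 in the same order.

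**Figure D1:**
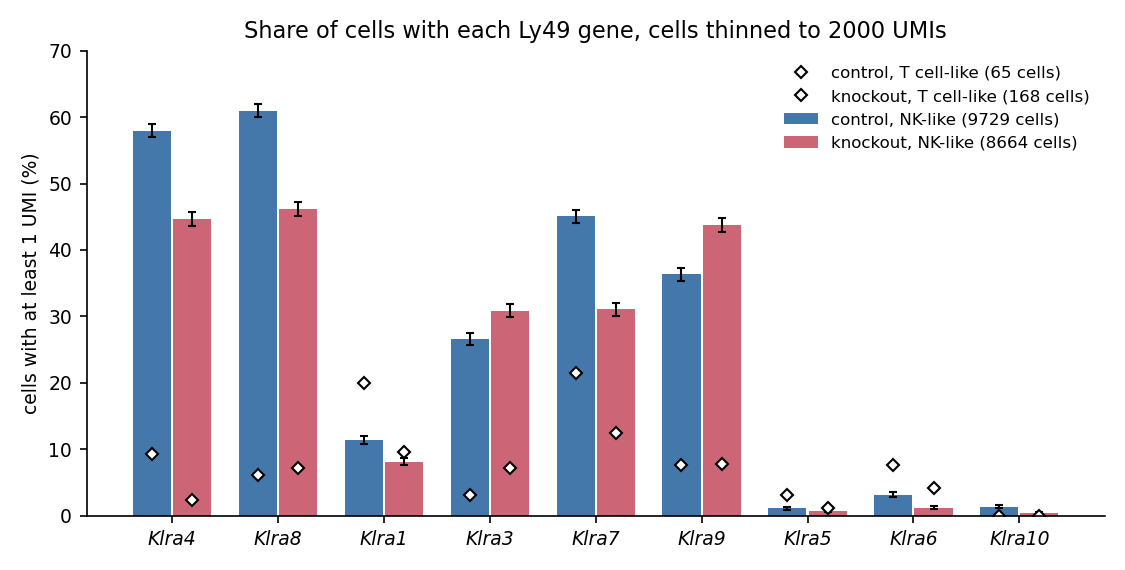
Share of NK-like cells with at least 1 UMI of each Ly49 gene (y axis, percent of cells) in the control (blue) and knockout (red) libraries, cells thinned to 2000 UMIs. Error bars are exact 95% intervals of counting error and diamonds are the shares in T cell-like cells of the same library. Klra4, Klra8 and Klra7 are lower and Klra9 and Klra3 higher in the knockout library.

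Free RNA in droplets can place UMIs in cells that do not express a gene, so the shares were read beside those of T cell-like cells. This is a limited reference, because 75.6% of the cells in that cluster also had NK receptor UMIs. T cell-like cells (65 and 168 cells after thinning to 2000 UMIs, median 6672 and 5091.5 UMIs, against 5794 and 3823 in NK-like cells) had Klra4 in 9.23% and 2.38%, Klra8 in 6.15% and 7.14%, and Klra9 in 7.69% and 7.74%. Klra7 was present in 21.5% and 12.5% of them and Klra3 in 3.08% and 7.14%. Some T cell subsets are known to carry Ly49 receptors, so these shares need not all be background. The NK-like shares of Klra3, Klra4, Klra7, Klra8 and Klra9 were above those of T cell-like cells in both libraries. Klra1 was present in 13 of 65 and 9.52% of T cell-like cells and Klra6 in 7.69% and 4.17%. Like those of Klra5, their NK-like shares were not above these, so they cannot be told from background by this measure. Klra10 was not found in T cell-like cells, but its NK-like shares lay below the upper interval bounds there, 5.52% and 2.17%. The measure takes no account of UMIs per positive cell, which for Klra1 were 2.25 and 2.28 in NK-like cells. The macrophage-like cluster gave no lower reference, with NK receptor UMIs in 72.6% of its cells and Klra4 in 62.9% and 37.3% of them. Macrophage-like and dendritic-like cells with at most 1 NK marker UMI had lower shares. At 500 UMIs any member was found in 6.52% of 46 control and 1.60% of 188 knockout cells of this kind. In NK-like cells at that depth the shares were 75.6% and 66.6%. These cells were picked for few NK UMIs, so their shares may understate the free RNA in other droplets. The level of free Ly49 RNA was therefore not resolved in these libraries.

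The depth of the cells themselves moved with part of the difference. Among cells that held 2000 to under 4000 UMIs before thinning, Klra4 was present in 61.5% of 1001 control cells and 43.3% of 4751 knockout cells. Among those with 4000 to under 6000 UMIs the shares were 56.8% and 43.9%. Among those with 6000 or more they were 58.3% of 4503 control cells and 54.0% of 993 knockout cells, so the gap in the deepest cells was the smallest of the 3. For Klra9 the shares in the same 3 classes were 35.4%, 38.2% and 34.8% in the control and 46.5%, 39.3% and 43.0% in the knockout library. The part of cell depth in the differences was not tested.

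Summed over all NK-like cells, the levels followed the shares. Levels are CPM, which count molecules at the 3′ end and are not divided by transcript length. Klra4 and Klra8 ranked 118 and 131 of all genes in the control library. Klra4 was at 1272 CPM in control and 1057 in knockout cells, a log2 ratio of knockout over control of -0.27. Klra8 was at 1056 and 689 CPM (log2 ratio -0.62). These are the activating pair, and Klra8 was the further below the control level. Klra7 was at 522 and 374 CPM (-0.48) and Klra1 at 128 and 92.4 (-0.47, interval -0.52 to -0.41). Klra9 was at 403 and 547 CPM (0.44) and Klra3 at 252 and 317 (0.33, interval 0.30 to 0.37), which places these near-identical inhibitory members above their control level. Klra6 was at 21.8 and 6.73 CPM (-1.70). Klra5, at 10.0 and 6.06 CPM, and Klra10, at 6.80 and 1.83, had a mean below the 10 CPM asked of a measured gene. In bulk sums of this kind fewer cells with a receptor and less RNA per cell cannot be told apart, and the cell shares above separate them in part. UMIs per positive cell were 4.45 and 4.72 for Klra4, 3.55 and 2.96 for Klra8, 2.31 and 2.39 for Klra7, and 2.28 and 2.63 for Klra9. For Klra4 and Klra7 the lower sum therefore came with fewer positive cells and not with fewer UMIs in each, whereas for Klra8 both were lower.

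With a log2 ratio of 0.32 as the mark, 2 of the 7 measured members were higher in the knockout library, 4 were lower, and Klra4 lay between. Of all 7332 measured genes 15% were marked higher and 29.3% lower, so lower marks were the commoner kind throughout these libraries. The median log2 ratio over the 9 members was -0.48, beside -0.07 over all measured genes, and the members' summed level went from 3671 to 3090 CPM. The direction of Klra3, Klra7, Klra8 and Klra9 was the same in each of the 4 NK-like clusters. Of these genes Klra9 varied most between the clusters, with log2 ratios of 0.70, 0.05, 0.45 and 0.11 in clusters 0 to 3. Klra4 and Klra1 varied more widely than Klra9. Klra4 had -0.30, -0.72, -0.16 and 0.02. Klra1 had -0.07, -0.60, -0.54 and -0.76. When each gene was set against the 300 genes nearest to it in exon length, the values of Klra3 and Klra9 were 0.12 and 0.23, and that of Klra4 was -0.49.

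Within a library each of the 6 commoner Ly49 genes was spread unevenly over cells: many cells had none and those that had it often had several UMIs. The variance of Klra4 UMIs per cell was 3.69 times their mean in control and 4.56 times in knockout cells. For the 6 members with shares between 5% and 95% in both libraries the ratio was between 2.12 and 3.69 in the control and between 2.31 and 4.56 in the knockout library. The median over all genes in that range of shares was 1.03 in both, and 1.95% and 2.31% of them were at least 25% above 1, as all 6 members were. Of the rarer members Klra5 had 2.59 in control and 2.80 in knockout cells, and Klra6 1.70 and 1.44. Klra10 had 1.02 and 0.996, close to the 1 of a Poisson distribution. Klra4 was absent from 42.0% of control cells, where a Poisson distribution of the same mean leaves 7.56%, and from 55.3% of knockout cells against 12.1%. Klra8 was absent from 39.0% against 11.5%, and from 53.8% against 25.4%. These counts describe cells of 1 library each and carry no error between animals.

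**Figure D2:**
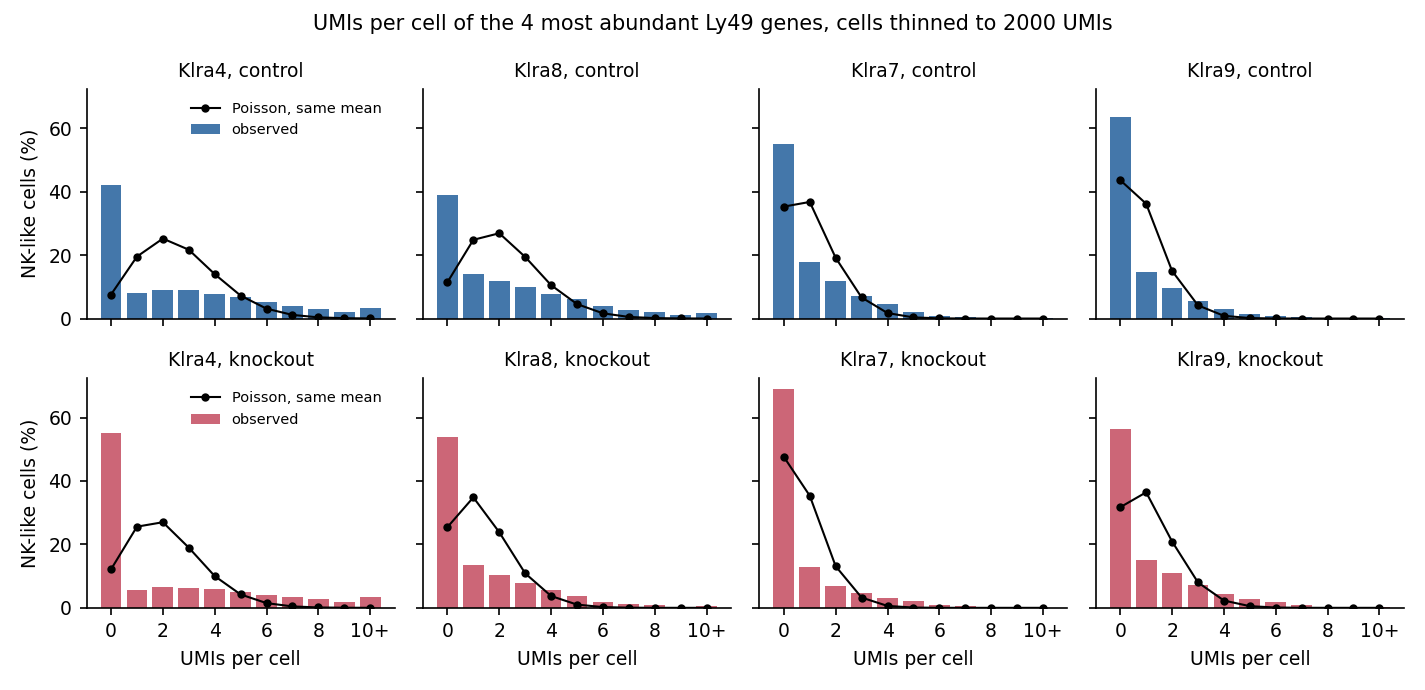
UMIs per NK-like cell (x axis) of Klra4, Klra8, Klra7 and Klra9 against the percent of cells (y axis) in the control (blue) and knockout (red) libraries, thinned to 2000 UMIs. Bars are the observed cells and the black points and lines a Poisson distribution of the same mean. For Klra4 the bar at 0 stands at 42.0% in control and 55.3% in knockout cells, above the Poisson points at 7.56% and 12.1%.

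A cell held on average 2.44 of the 9 members in control and 2.07 in knockout cells, with a median of 2 in both. No member was found in 5.50% of control and 11.1% of knockout cells. The product of the single shares, which is what independent detection would give, is 3.52% and 7.16%. Exactly 3 members were found in 31.8% and 24.6%, and no cell had more than 6. In the deepest class of cells the mean numbers were 2.46 and 2.33. Without thinning the means were 3.10 and 2.45, and 2.75% and 7.96% of cells had none. The number of members varied a little more than independent detection would give, with a variance of 1.38 against 1.31 in the control and 1.51 against 1.27 in the knockout library.

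Cells showed 191 different combinations of members in the control library and 152 in the knockout library. The commonest in the control library was Klra4 with Klra7 and Klra8, in 8.09% of cells, where the product of the shares gives 6.24%. In the knockout library the commonest state was no member, and Klra9 alone was found in 8.40% of cells (product 5.56%), against 3.83% of control cells (product 2.01%). Klra9 codes for an inhibitory receptor, so these cells showed an inhibitory member without a detected activating one.

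Pairs were described by the share of cells with both genes over the product of the single shares, for the 15 pairs of the 6 members within the 5% to 95% range. That limit was set after the pairs of rarer members were seen to rest on few cells. The activating genes were found together more often than the product. Klra4 and Klra8 shared 39.4% of control cells (product 35.4%, ratio 1.11, interval 1.09 to 1.14) and 26.0% of knockout cells (product 20.7%, ratio 1.26, interval 1.21 to 1.30). Klra1 with Klra4 had the highest ratio of the 15 in both libraries, 1.17 and 1.34. Klra1 with Klra7 had 1.08 and 1.30. At the other end Klra1 with Klra3 had 0.70 (interval 0.61 to 0.80) and 0.76 (0.65 to 0.89), and Klra1 with Klra9 had 0.79 and 0.86. Klra3 and Klra9, the pair alike in sequence, had 0.92 and 0.99, so they were not found together beyond the product in either library. A ratio at least 25% above 1 was reached by 0 of 15 pairs in control and 3 in knockout cells, where 1.01% and 1.47% of all pairs of genes in the same range of shares reached it. A ratio of at most 0.8 was reached by 2 and 1, with 1.6% and 2.13% of all pairs there. Of the 8 pairs of an activating with another member 7 lay above 1 in both libraries, and of the 6 pairs without an activating member only Klra1 with Klra7 did. Over all pairs of genes in the same range 52.4% and 52.6% lay above 1.

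**Figure D3:**
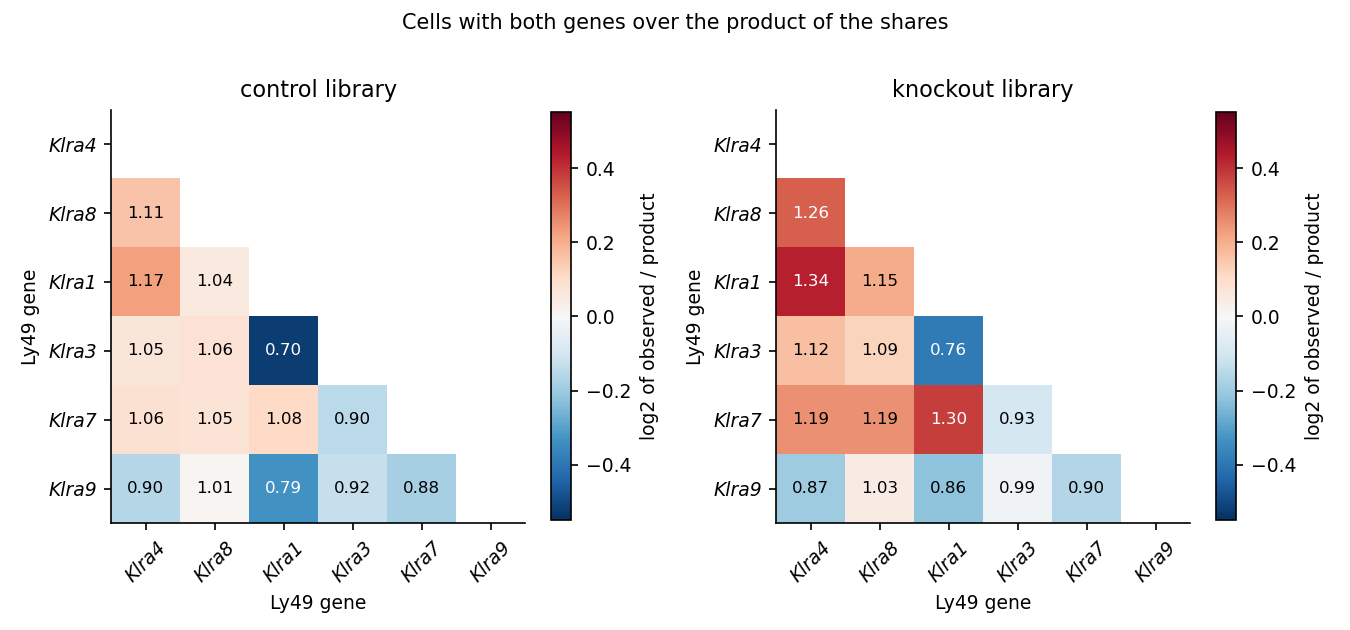
Share of NK-like cells with both genes over the product of their shares for 15 pairs of Ly49 genes, in the control (left) and knockout (right) libraries, cells thinned to 2000 UMIs. Colour is log2 of the ratio and the printed number is the ratio. Klra4 with Klra8 stands at 1.11 and 1.26 and Klra1 with Klra3 at 0.70 and 0.76.

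The other 21 pairs had between 0 and 220 shared cells in the control and between 0 and 63 in the knockout library, too few for most ratios to be read. Klra6 with Klra7 had 1.23 (172 cells) and 1.49 (46 cells, interval 1.10 to 1.99). Klra5 with Klra6 had ratios of 1.76 (6 cells, interval 0.65 to 3.83) and 6.14 (4 cells, interval 1.67 to 15.7), and Klra5 with Klra10 shared no cell in either library. Klra6 with Klra10 had 3 and 0 shared cells. The ratio intervals in the control and knockout libraries were 0 to 2.56 and 0 to 18.1 for Klra5 with Klra10. For Klra6 with Klra10 they were 0.15 to 2.10 and 0 to 10.4. All of them include 1, so these low counts do not show that the genes avoid each other. Klra4 with Klra10 had 1.20 (91 cells) and 1.44 (20 cells), and Klra8 with Klra10 had 1.47 in the knockout library (21 cells). Over all 36 pairs a ratio at least 25% above 1 was reached by 1 and 10 pairs and one of at most 0.8 by 6 and 4. These counts include the pairs that rest on few cells. No share over all gene pairs was computed for genes this rare, so the counts are not compared between the libraries. When the cells were split into 3 classes of maturation, described next, the median ratio of the 15 pairs was 1.06, 1.01 and 0.98 from the least to the most mature class in the control and 1.15, 1.01 and 1.08 in the knockout library.

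Maturation was scored in each cell as the mean standardised level of 11 genes of mature NK cells, among them Itgam (CD11b), Cma1 and Klrg1, minus that of 11 genes of less mature ones, among them Cd27, Il7r and Kit, with no Ly49 gene in either list. Each library was cut into 3 classes of equal size, which are ranges of a score and not cell types. The cells had been sorted as CD27+CD11b+, so the classes lie within that sorted population and do not span all NK maturation. Within 0.1 of a cut lay 25.7% of control and 24.9% of knockout cells. Cells without any member were commonest in the least mature class, at 9.34%, 4.50% and 2.65% from least to most mature in the control and 19.4%, 7.79% and 6.02% in the knockout library. The mean number of members was 2.24, 2.49 and 2.59 in the control and 1.72, 2.18 and 2.30 in the knockout library.

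The members did not all follow the score to the same degree. Klra4 was present in 50.3%, 59.9% and 63.8% of the control classes and in 36.8%, 48.7% and 48.7% of the knockout classes. Klra8 was present in 55.01%, 63.9% and 64.1% and in 39.7%, 50.6% and 48.4%. For both activating genes most of the difference lay between the least mature and the middle class. Klra9 was present in 33.4%, 35.2% and 40.4% of the control classes and in 32.9%, 42.9% and 55.3% of the knockout classes. Its shares in the least mature classes of the libraries were thus close, and they lay apart in the most mature ones. Klra3 was present in 23.4%, 26.8% and 29.6% and in 24.7%, 31.9% and 36.05%. Klra7 stayed near its average, at 44.2%, 45.9% and 45.1% and at 28.8%, 33.2% and 31.2%. Klra1, the rarest of the 6, was present in 12.6%, 11.7% and 9.87% of the control classes and in 7.31%, 8.90% and 8.21% of the knockout classes. Of these 6 members, the share in the most mature class was at least 25% above that in the least mature class for Klra3 and Klra4 in the control and for these and Klra9 in the knockout library. Of all genes in the range 3.46% and 3.57% reached it. The ratio of the most to the least mature class was at most 0.8 for Klra1 alone of the 6, in the control library only (0.78), where 2.35% of genes were, beside 3.66% in the knockout library. That mark was not reached at 1000 UMIs (0.903) or 3000 UMIs (0.818), nor under the stricter cell filter (0.832). In the marker gate the ratio was 2.67. The 3 rare members rest on few cells, and their ratios were 1.90 for Klra10, 1.11 for Klra6 and 0.821 for Klra5 in control cells and 1.38, 1.44 and 1.93 in knockout cells. The cuts were made within each library, and whether a given class means the same stage in both was not tested: the summed level of the mature list in NK-like cells was 3669 and 3025 CPM and that of the less mature list 2134 and 2729.

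**Figure D4:**
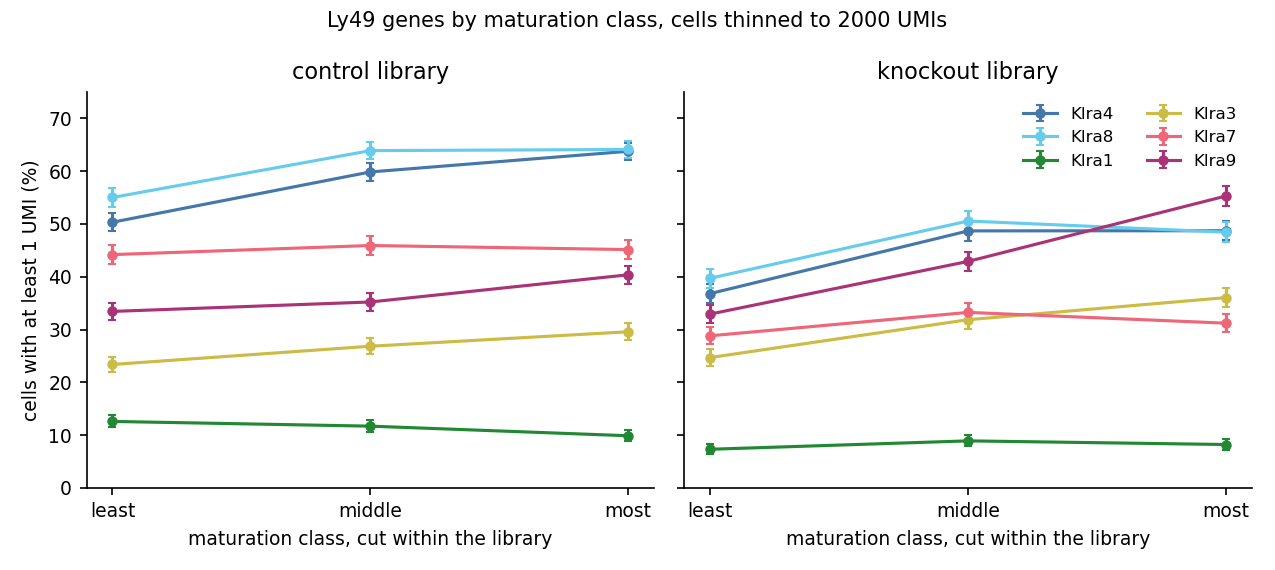
Share of NK-like cells with each of 6 Ly49 genes (y axis, percent) in the least, middle and most mature class of the control (left) and knockout (right) libraries, cells thinned to 2000 UMIs. Points are shares and bars exact 95% intervals of counting error. Klra9 goes from 32.9% to 55.3% in the knockout and from 33.4% to 40.4% in the control library, while Klra7 stays within 44.2% to 45.9% and 28.8% to 33.2%.

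Of the genes outside the family, Klrc1 had the lowest phi coefficient with Klra4 (-0.25 and -0.33 in the control and knockout libraries), Klra8 (-0.17 and -0.23) and Klra7 (-0.11 and -0.15), taking the lower value of the 2 libraries for every gene, and it was singled out for this after its values were seen. The phi coefficient measures how often 2 genes are found in the same cells, from -1 to 1, here over 4178 genes. Klrc1 encodes NKG2A, the inhibitory partner of CD94. Its UMIs were found in 32.6% of control and 52.9% of knockout cells, and its level was 292 and 647 CPM. Klra4 was present in 39.9% of control cells with Klrc1 and in 66.7% of those without it. In the knockout library the shares were 29.4% and 61.9%. Klra4 was thus less often detected beside Klrc1 in both libraries, and the gap between the libraries was 10.5 points among cells with Klrc1 and 4.81 among cells without. Klra8 was present in 49.1% with and 66.8% without Klrc1 in the control and in 35.6% and 58.2% in the knockout library, and Klra7 in 37.1% and 49.0% and in 24.5% and 38.5%. Klrb1b, another receptor gene with a higher knockout level that was also singled out after its values were seen, showed a like pattern: Klra4 was present in 38.1% of control cells with it and 61.2% without, and in 20.2% and 53.5% of knockout cells. For Klrc1, Klra9 showed hardly any such difference, at 36.9% and 36.1% and at 43.3% and 44.1%. No member was found in 10.96% of control cells with Klrc1 and 2.85% without it, and in 17.4% and 3.92% of knockout cells. The gap for Klra4 was present in each maturation class, for example 34.6% against 60.5% in the least mature and 45.1% against 70.9% in the most mature class of the control library.

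**Figure D5:**
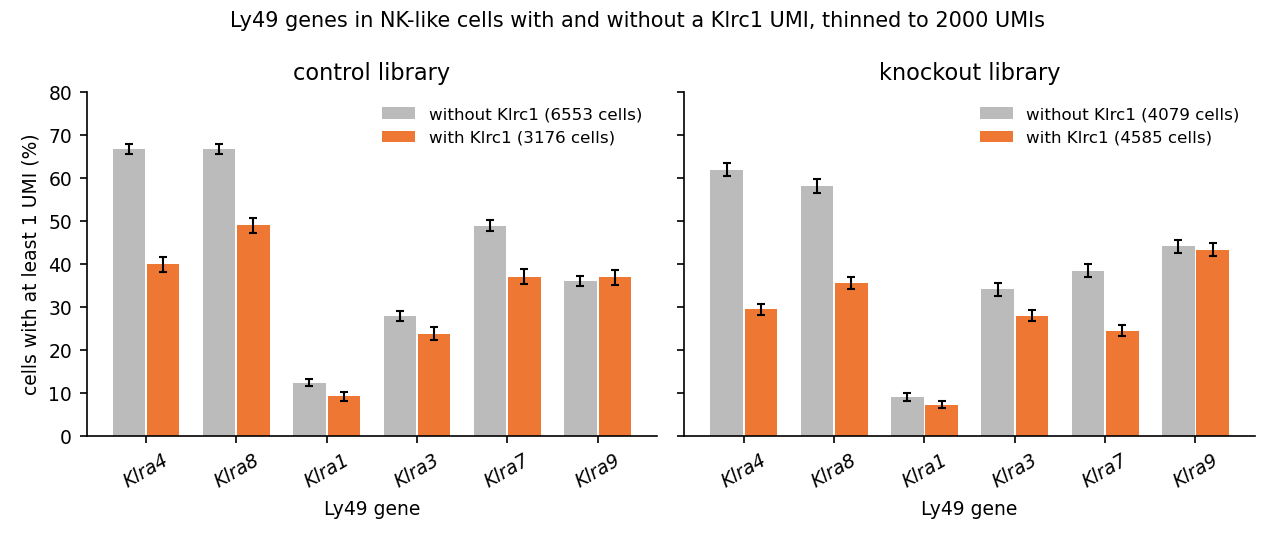
Share of NK-like cells with each of 6 Ly49 genes (y axis, percent) among cells without (grey) and with (orange) a Klrc1 UMI, in the control (left) and knockout (right) libraries, cells thinned to 2000 UMIs. Error bars are exact 95% intervals of counting error. The bars for Klra4 stand at 66.7% and 39.9% in the control and 61.9% and 29.4% in the knockout library, and those for Klra9 are nearly level.

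The genes most often found with each member gave weak values throughout, and in sparse counts of cells that share a library they describe no more than that. For Klra4 the highest phi values were those of Scimp (0.11 in both libraries) and Cmah (0.10 and 0.09). Klra8 was followed by Khdc1a (0.06 and 0.08) and Cmah, Klra9 by Id2 (0.07 in both), a regulator of innate lymphocyte development, and Klrg1, and Klra7 by Itga4 (0.08 and 0.03) and Klri2. Klra3 was followed by Lgals1 and Itgam, and Klra1 by Klri2 and Cd72, all at 0.05 or less after rounding. The rare members were followed by Cers6 and Ppm1b for Klra5, Dnajb11 and Ripor2 for Klra6, and Rap2a and Eif4g3 for Klra10, at 0.04 or less after rounding.

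Genes that act with the receptors were described from lists. Of 17 genes of Ly49 signalling and ligands, all measured, 0 were marked higher and 5 lower in the knockout library, beside 15% and 29.3% of all genes. These were Ptpn6, which encodes SHP-1 (83.4 and 39.2 CPM, log2 ratio -1.09), the phospholipase gene Plcg2 (-0.64), Ptpn11, which encodes SHP-2 (-0.44), Inpp5d, which encodes SHIP1 (-0.34), and the kinase gene Syk (-0.33). Tyrobp, which encodes DAP12, was at 3060 and 3172 CPM and Hcst, which encodes DAP10, at 751 and 877, neither past the mark. Of 12 measured genes of other NK receptors, most of them in the same gene complex, 3 were marked higher: Klrb1b (85.0 and 190 CPM, log2 ratio 1.16), Klrc1 (1.15) and Klrd1, the gene of CD94 (1264 and 1678 CPM, 0.41). Klrc3 (-0.74) and Klrg1 (-0.45) were marked lower. The median log2 ratio was -0.22 over the signalling list and 0.05 over the receptor list, beside -0.07 over all measured genes.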

How the data were processed

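Single-cell 3′ libraries (Single Cell 3 v2 kit, per the labels' protocols) were made from 1 pool of 2 mice per genotype. The deposited files hold counts of UMIs per gene and cell barcode, with no normalization. STAR, Cell Ranger 3.0.0, Seurat and the build GRCm39 are named in the submitters' processing notes without roles. Depth is 69853026 UMIs (control) and 42795121 UMIs (knockout). Cells below 500 genes or above 10% mitochondrial UMIs were left out here. Scrublet marked 11 of 20951 cells (0.0525%), too few to have worked, so no cell was removed as a doublet. Cells were clustered with scanpy 1.11.5 and leidenalg 0.10.2 (2000 variable genes without Klra genes, 30 components, resolution 0.5), with genes scaled within each library, which was chosen after clusters without it were seen to separate the libraries. NK-like clusters were named from marker genes, and their cells summed to CPM or thinned to 2000 UMIs with a fixed seed. Intervals are exact (Clopper-Pearson for shares), and a count of 0 is read as allowing 3 counts. Genes at 10 CPM or more count as measured. Positions and transcripts come from a GRCm38 annotation matched by gene ID (31011 of 31053 IDs) and promoters from RefSeq (GRCm38.p6, all 9 members matched). The calculations of log2 ratios and co-detection ratios were tested on simulated counts, which held no free RNA, doublets or reads shared between genes. The members and lists were chosen with earlier results of these data known. All 9 members are named, with list genes past the mark, for each member the 2 genes of highest phi, and the pairs with the 3 highest or lowest ratios.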

Additional observations from a re-analysis of the deposited data

Results flagged for a closer look

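Klra1, the gene of the inhibitory receptor Ly49A, had shares that differed in opposite directions along the maturation score in the libraries at 2000 UMIs, and the knockout direction is not stable. Its share in the most mature class minus that in the least mature class was -2.71 percentage points in control cells and 0.900 in knockout cells. Whether these differences themselves differ was not tested, since there is 1 library per genotype. In knockout cells the intervals of the classes overlap (6.38% to 8.32% in the least and 7.23% to 9.27% in the most mature class). The knockout ratio of the most to the least mature class was 1.12, and 1.01 at 1000 UMIs, 0.977 at 3000 UMIs and 0.991 with the mature list alone, so that in the last 2 settings it lay on the same side of 1 as the control ratio.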

How the results depend on the processing

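No paired analysis was possible because each group has 1 library and the labels carry no replicate numbers, and for the same reason no library could be left out. Of the single values under the alternatives 536 stayed within their limits, 271 moved and 9 reversed, and of the leading counts and means 91 stayed and 31 moved. The limits came from counting intervals for shares, share differences, co-detection ratios and log2 ratios. For all other values, maturation ratios and variance over mean among them, they were fixed margins. The cause of the moves was not tested. The share differences of Klra3, Klra4, Klra6, Klra7, Klra8, Klra9 and Klra10 kept their direction under all 8 alternatives, but their sizes moved, from -16.1 to -2.99 points for Klra4, -18.3 to -4.53 for Klra8, 1.27 to 9.45 for Klra3 and 3.33 to 18.6 for Klra9. The mean number of members in control and knockout cells was 1.85 and 1.56 at 1000 UMIs, 2.73 and 2.32 at 3000 UMIs, and 3.17 and 3.12 at 6000 UMIs, a depth added after seeing the data that leaves 4503 and 993 cells. A marker gate in place of the clusters keeps only 269 and 464 cells. Under it the knockout mean was 2.31, the Klra1 log2 ratio 1.01 and share difference 2.73 points, the Klra1 maturation ratio 2.67 in the control, the Klra3 maturation ratio 0.949 in the knockout library, the co-detection ratio of Klra1 with Klra9 1.56 in the control, and those of Klra1 with Klra3 1.10 and Klra6 with Klra7 0 in the knockout library. The Klra4 log2 ratio was 0.07 in the gate, against -0.27 over all NK-like cells, so the lower Klra4 level was not kept there. The gate gave 2 control pairs at least 25% above 1 and 1 at or below 0.8, 2 knockout pairs at or below 0.8, and 1 knockout member with a maturation ratio at least 25% above 1. At 6000 UMIs Klra1 with Klra3 was at 1.01 in the knockout library, the Klra5 share difference was 0.337 points, 1 knockout pair lay at least 25% above 1, and 0 pairs lay at or below 0.8 in either library. Knockout pairs at or below 0.8 were also 0 under another thinning draw and under a stricter cell filter. Control members with a maturation ratio of at most 0.8 were 0 at 1000, 3000 and 6000 UMIs, under the gate, the stricter filter, clusters without scaling within libraries (added after seeing the data) and the less mature list alone. Control members at least 25% above 1 were 1 under the stricter filter, the unscaled clusters, either list alone and the score without Itgam and Cd27. Measured members marked higher were 0 with adjustment for exon length and in clusters 1 and 3 alone (added after seeing the data).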
